A study of Sus scrofa with 36 samples.

Results

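Genes of the sarcomere's M-band, Z-disc and thick filament were followed in the left ventricle of newborn pigs after coronary ligation. The set was fixed by symbol and held 8 genes: MYOM1, MYOM2, MYBPC3, TTN, ACTN2, TCAP, LDB3 and MYPN. Of these 8, 6 had a row among the 25880 gene identifiers of the count table. TTN and LDB3 matched no row by symbol and were not analysed here by name. Unnamed gene models at their positions are described at the end. All 6 matched genes passed the filter on low counts, and the lowest count of any of them in any library was 581, for MYPN.

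The sarcomere is the contractile unit of the heart muscle cell. Thick filaments of myosin are held in register at its centre by the M-band, and thin filaments are anchored at its ends in the Z-disc. The giant protein titin (TTN) spans from one to the other. MYOM1 (myomesin 1) and MYOM2 (myomesin 2, also called M-protein) cross-link myosin at the M-band. MYBPC3, cardiac myosin-binding protein C, binds the thick filament and tunes contraction, and its mutations are a common cause of hypertrophic cardiomyopathy. ACTN2 (alpha-actinin 2) cross-links actin at the Z-disc, TCAP (telethonin) caps titin there, and MYPN (myopalladin) is a Z-disc scaffold protein.

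The study used 24 Yorkshire-landrace swine, with no genetic change named in the labels. In 12 pigs, branches of the left anterior descending and left circumflex coronary arteries were tied off for good, and 12 pigs were sham controls. Surgery was at day 2 of age (Young) or day 14 (Old), and tissue was collected after 1 day (Early) or after 1 week (Late). The age at collection was therefore 3 days in Young Early, 9 days in Young Late, 15 days in Old Early and 21 days in Old Late. Each infarcted pig gave an infarct zone (IZ) and a border zone (BZ) library, and each sham pig gave 1 library of the anterior left ventricular wall (Sham), which makes 12 groups of 3 and 36 libraries. All were bulk tissue, in which fewer cardiomyocytes and less RNA per cardiomyocyte cannot be told apart. The design asks how the injured heart differs between these ages.

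Library totals ran from 8113200 to 39789874 counts. Levels are counts-per-million values (CPM) after scaling by TMM factors, and a difference is given as a log2 fold change with its standard error (±, SE) from edgeR's quasi-likelihood fit. A gene counts as called at a Benjamini-Hochberg adjusted p under 0.05 over all genes tested. Young Early BZ replicate 2 stood apart, with the highest total and a TMM factor of 0.578. It is kept in the main fits. Leaving it out of the fits for comparisons of other groups was chosen after seeing the data. Young Early libraries were prepared in batch 1, Old Early libraries in batch 2 and Young Late libraries in both. All Old Late libraries were prepared in batch 3, which held no other group, so that batch and condition cannot be told apart for levels there, although the Old Late zones and shams share that batch. The summed level of 17 other cardiomyocyte genes, such as CKM and RYR2, was 10811 to 16189 CPM over the 4 Sham groups and 2428 to 3610 CPM in Old Late IZ. Summed markers of fibroblasts were 1329 to 1652 CPM in Old Late Sham and 17398 to 21213 CPM in Old Late IZ. The skeletal muscle markers were low, at 19.3 to 99.1 CPM summed over 11 genes. MYH3 and NEB were the highest of them, at up to 79.9 and 64.5 CPM, and PVALB was at 0 in 34 of the 36 libraries. Their sum lay above Sham in Young Late IZ (76.9 to 96.2 against 28.7 to 43.7 CPM). It also did in Old Late IZ (40.4 to 99.1 against 33.4 to 36.8 CPM), and it overlapped Sham in the IZ of Young Early and Old Early.

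In the gene models of the count table, for which no genome build is named, MYOM1 lies on the plus strand of chromosome 6 (103451352 to 103597297) and MYOM2 on the plus strand of chromosome 15 (33529406 to 33606924). MYBPC3 lies on the plus strand of chromosome 2 (15247539 to 15269299) and TCAP on the minus strand of chromosome 12 (22651244 to 22653005). Both ACTN2 (54666743 to 54742779, minus strand) and MYPN (71283257 to 71394599, plus strand) lie on chromosome 14. The exons of MYOM1 overlap those of LPIN2, so that reads from the overlap are uncertain for both. Exonic length ran from 1497 bases for TCAP to 13219 bases for ACTN2.

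In sham hearts TCAP and MYBPC3 were the most abundant of the 6 genes per length, and MYPN the least. In Young Early Sham the level per kilobase of exon was 1862 ± 304 CPM (SD, n = 3) for TCAP and 1033 ± 45.4 for MYBPC3. Next came ACTN2 at 184 ± 36.9, MYOM1 at 175 ± 17.5, MYOM2 at 100.2 ± 44.3 and MYPN at 7.41 ± 0.960 CPM per kilobase. ACTN2 and MYOM1 did not differ there beyond their spread. In Old Late Sham the order per length was MYBPC3 (1471 ± 277), TCAP (1394 ± 213), MYOM2 (314 ± 56.5), ACTN2 (219.9 ± 1.43), MYOM1 (189 ± 7.87) and MYPN (14.0 ± 1.07). There MYBPC3 and TCAP did not differ beyond their spread. MYOM2 thus ranked below MYOM1 and ACTN2 in the 3-day-old shams and above both in the 21-day-old shams. Preparation batch and RNA integrity also differed between those shams.

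MYPN was the only one of the 6 whose level differed between sham groups in the fit of all 36 libraries. It was 66.3, 70.3 and 54.5 CPM in the 3 Young Early Sham libraries and 106.9, 100.6 and 112.7 CPM in Old Early Sham. The groups did not overlap, and MYPN was higher in Old by 0.74 ± 0.20 (adjusted p = 0.0081). In that comparison 31.1% of all genes tested were called and 17.5% were called higher. MYPN's call was lost with preparation batch as a term (0.66, adjusted p = 0.0893) and with RNA integrity as a covariate (0.58, adjusted p = 0.0587). The Young Early shams were all in batch 1 and the Old Early shams all in batch 2. Age and batch therefore cannot be told apart between these sham groups, and the batch term rested on the Young Late libraries alone. MYOM2 had sham means of 919 ± 406, 1544 ± 396, 1396 ± 149.8 and 2884 ± 518 CPM in Young Early, Young Late, Old Early and Old Late. The Old Late minus Young Late difference of MYOM2 was 0.90 ± 0.60 (adjusted p = 0.323), and Old Late minus Old Early was 1.05 ± 0.61 (adjusted p = 0.616). No member was called in Late Sham, Old minus Young, where 10.9% of genes were called, in Young Sham, Late minus Early (8.74%), or in Old Sham, Late minus Early (0.0275%). At an unadjusted p under 0.05 the counts were 1, 0 and 0 members, and DESeq2 called 1, 0 and 0. The 1 was MYPN in Late Sham (adjusted p = 0.066 in edgeR), which passed in the fit without Young Early BZ replicate 2 (adjusted p = 0.0412). With edgeR on the compared groups alone, MYOM2 (0.836, adjusted p = 0.0326) and MYPN (0.487, 0.0445) passed in Late Sham. In Old Sham, Late minus Early, MYOM2 (1.027, adjusted p = 0.0112) and MYOM1 (0.403, 0.0442) passed in that setting. With library size alone MYOM1 (0.754, edgeR adjusted p = 0.0133) and MYPN (0.890, 0.0156) passed in Late Sham.

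**Figure D1:**
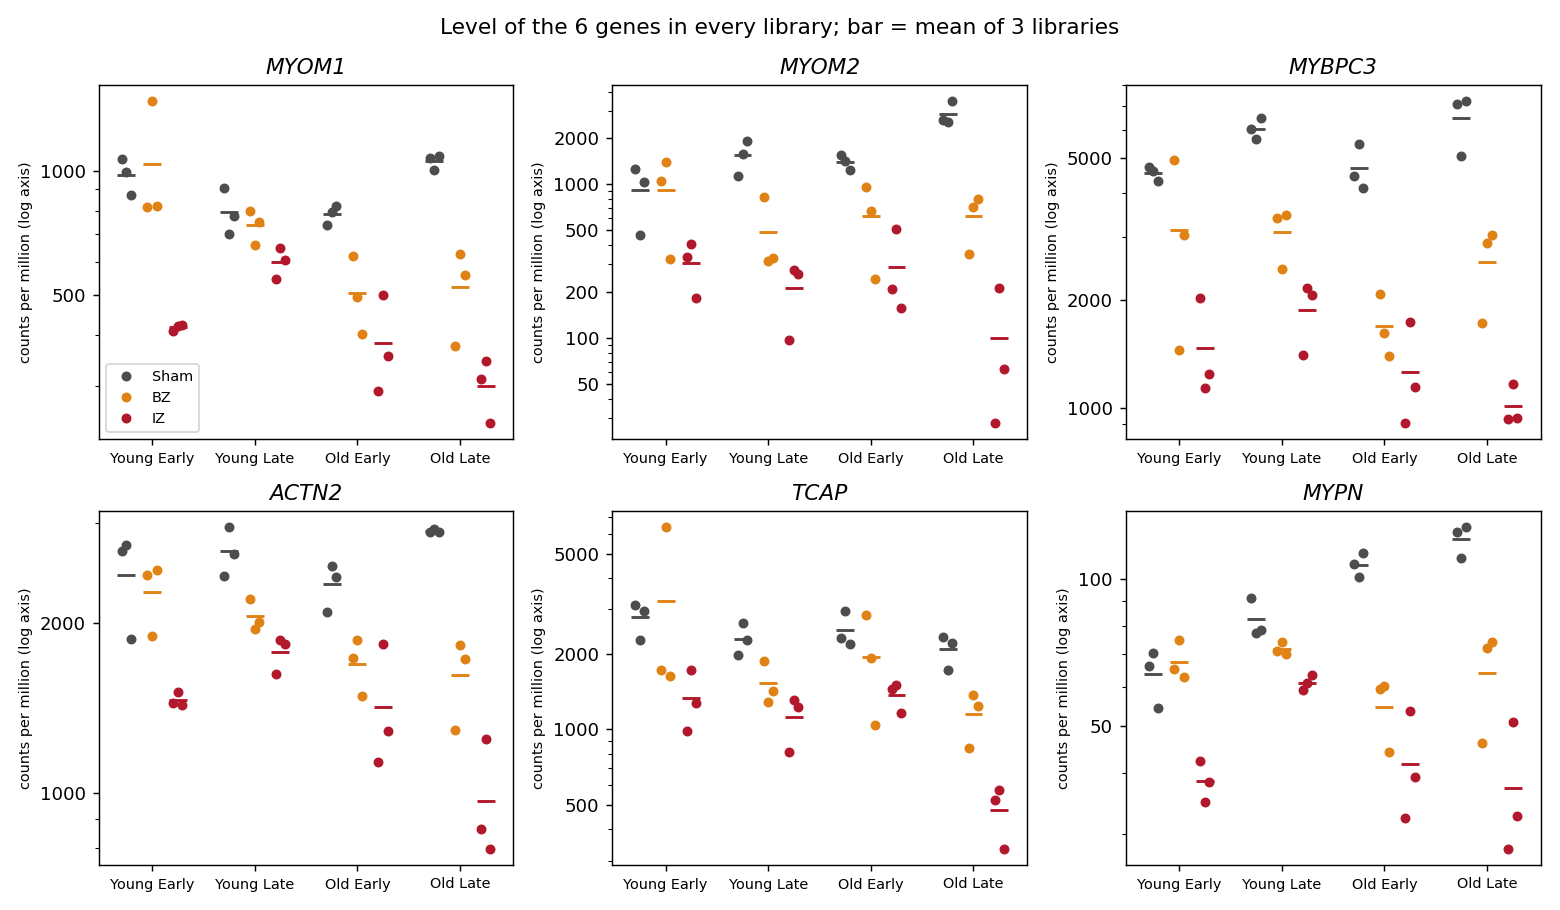
Level of MYOM1, MYOM2, MYBPC3, ACTN2, TCAP and MYPN in CPM (log axis) in each of the 36 libraries, by condition, with Sham in grey, BZ in orange and IZ in red. Points are libraries and bars are means of 3, and in each of the 4 conditions all 3 IZ libraries lie below all 3 Sham libraries for each gene.

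The infarct zone was compared with the sham wall of the same age and time, the comparison that asks what injury did to these transcripts. Of the 24 gene-by-condition differences, 20 were called lower and none higher, and in all 24 the 3 IZ libraries lay below the 3 Sham libraries. In Young Early 5 of the 6 genes fell, where 27.2% of all genes were called and 12.0% called lower. In Young Late 4 fell, where 30.2% of all genes were called and 13% called lower. In Old Early 5 fell, where 34.3% were called and 14.8% called lower. In Old Late all 6 fell, where 49.1% were called and 24.0% called lower. Non-overlap with IZ below Sham held for 20.7%, 21.8%, 26.4% and 32.2% of all genes in Young Early, Young Late, Old Early and Old Late. Markers of other cells also differed between zones and shams, not all in 1 direction. Summed endothelial markers (7 genes) lay above Sham in the IZ of Young Early and Old Early. They lay below it in Young Late IZ (188 to 233 against 246 to 372 CPM) and overlapped it in Old Late IZ. Summed macrophage markers (10 genes) overlapped Sham in Young Early IZ (192 to 252 against 150 to 221 CPM) and lay above it in the other 3 conditions. The summed fibroblast markers (10 genes) had a median of 2091 and a highest value of 3715 CPM in Young Early IZ, where the lowest library lay above the 1250 to 1473 CPM of Young Early Sham but within the range of all shams. They were 4920 to 8183, 3305 to 3882 and 17398 to 21213 CPM in the IZ of the other 3 conditions and 788 to 1801 CPM over all shams, and the summed neutrophil markers (6 genes) were 5.75 to 302 CPM in the IZ and 0.442 to 1.9 CPM in the shams. In Old Late the RNA integrity number was 7.8 to 8.4 in the shams and 7.1 to 7.6 in the IZ, and the mitochondrial share of counts was 22.8% to 24% in the shams and 9.75% to 11% in the IZ, both without overlap. With RNA integrity as a covariate all 6 genes were still called lower there. The part of the cell markers in the differences of the 6 genes was not tested. The median log2 fold change of the 6 genes was −1.15, −0.82, −1.20 and −1.97 in these conditions, beside 0.08, 0.03, 0.00 and −0.04 over all genes.

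MYOM2, the M-protein of the M-band, had the largest difference of the 6 in Young Late, Old Early and Old Late. In Old Late it stood at 2614, 2556 and 3481 CPM in the shams and at 27.8, 209 and 62.2 CPM in the IZ. The highest IZ library was thus far below the lowest sham. MYOM2 fell by 4.85 ± 0.70 on the log2 scale, 28.9-fold lower (adjusted p = 2.19e-06), and only 0.0482% of all genes had a lower value in that comparison. With 1 library left out the log2 value lay between −5.93 (without Old Late IZ replicate 2) and −4.33 (without Old Late IZ replicate 1). In Young Late it was 1135, 1573 and 1925 CPM in the shams and 96.4, 275 and 259 CPM in the IZ, a fall of 2.88 ± 0.64 (adjusted p = 0.00126). The groups were again well apart, with IZ replicate 1 the lowest. In Old Early it fell by 2.26 ± 0.63 (adjusted p = 0.00629), from 1541, 1407 and 1242 CPM to 208, 508 and 157 CPM, and the value was −2.94 without Old Early IZ replicate 2. In Young Early it was 1260, 469.5 and 1027 CPM in the shams and 335, 406 and 182 CPM in the IZ, with a log2 fold change of −1.58 ± 0.61 that missed the threshold (adjusted p = 0.0547). Young Early Sham replicate 2 was low for MYOM2, and without it the difference was −1.89 and passed. Without the divergent Young Early BZ replicate 2 in the fit it was −1.58 with an adjusted p = 0.0413.

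MYOM1, the other myomesin, moved less. It was 1066, 990.5 and 872 CPM in Young Early Sham and 409, 419.5 and 421.5 CPM in Young Early IZ. The 3 IZ libraries lay close together (coefficient of variation 1.58%) and below all shams, and MYOM1 fell by 1.23 ± 0.23 (adjusted p = 0.000335). In Young Late it was 906, 701 and 774.5 CPM in the shams and 545, 648 and 607 CPM in the IZ, a difference of −0.40 ± 0.22 that did not pass (adjusted p = 0.176). It fell by 1.04 ± 0.23 in Old Early (adjusted p = 0.000779). In Old Late MYOM1 went from 1070.2, 1003.5 and 1086 CPM to 312.5, 345 and 244 CPM, a fall of 1.81 ± 0.23 (adjusted p = 3.2e-07).

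MYBPC3, of the thick filament, fell in every condition. In Young Early it was 4712, 4595 and 4323 CPM in the shams and 2029, 1138.5 and 1245 CPM in the IZ, a fall of 1.63 ± 0.33 (adjusted p = 0.000677). In Young Late the shams held 6022, 5651 and 6461 CPM and the IZ 1404, 2160 and 2071 CPM, a fall of 1.69 ± 0.33 (adjusted p = 0.000313). The lowest sham library was above the highest IZ library by more than the spread of either group. It fell by 1.89 ± 0.33 in Old Early (adjusted p = 7.67e-05) and by 2.68 ± 0.34 in Old Late (adjusted p = 2.77e-07). In Old Late the shams held 7110.1, 5062 and 7230.2 CPM and the IZ 930.5, 1166 and 940 CPM.

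ACTN2, which cross-links actin in the Z-disc, fell in all 4 conditions by less than MYBPC3. Its falls were 0.74 ± 0.20, 0.59 ± 0.20 and 0.72 ± 0.20 in Young Early, Young Late and Old Early (adjusted p = 0.00915, 0.0282 and 0.00737). In Old Late ACTN2 was 2897, 2929 and 2895 CPM in the shams and 865, 1243 and 796 CPM in the IZ, a fall of 1.59 ± 0.21 (adjusted p = 5.08e-07). The shams there were close together and well above all IZ libraries. The Young Late call of ACTN2 was lost without any 1 of 5 libraries, all but Young Late Sham replicate 1, with log2 values of −0.66 to −0.51 and adjusted p up to 0.105. The Old Early call was lost without Old Early IZ replicate 1 (adjusted p = 0.0652). With scaling by library size alone, ACTN2 was at −0.149, −0.433 and −0.311 in Young Early, Young Late and Old Early and was not called in any of the 3 (edgeR adjusted p = 0.639, 0.202 and 0.354).

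TCAP, the titin cap, was 3129, 2271 and 2964 CPM in Young Early Sham and 987, 1721 and 1272 CPM in Young Early IZ, a fall of 1.07 ± 0.38 (adjusted p = 0.037). In Young Late it fell by 1.04 ± 0.38 (adjusted p = 0.0396). In Old Early it was −0.86 ± 0.38 and did not pass (adjusted p = 0.0798), but it passed without the divergent library in the fit (adjusted p = 0.0152). In Old Late TCAP was 2328, 1725 and 2208 CPM in the shams and 525, 574 and 335 CPM in the IZ, a fall of 2.13 ± 0.39 (adjusted p = 5.84e-05). The Young Early call of TCAP was lost without Young Early Sham replicate 1 or 3 or Young Early IZ replicate 1 or 3 (adjusted p up to 0.144), with RNA integrity as a covariate (adjusted p = 0.0732) and with library size alone (−0.519, adjusted p = 0.132). The Young Late call was lost without each library but Young Late Sham replicate 1 (adjusted p up to 0.132).

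MYPN, the scaffold, fell by 0.72 ± 0.20 in Young Early (adjusted p = 0.00799), by 1.35 ± 0.20 in Old Early (adjusted p = 1.04e-05) and by 1.70 ± 0.20 in Old Late (adjusted p = 1.06e-07). In Old Late it was 124, 110.3 and 128 CPM in the shams and 28.0, 51.0 and 32.7 CPM in the IZ. In Young Late the shams held 91.4, 77.5 and 78.7 CPM and the IZ 59.1, 61.1 and 63.6 CPM. Those groups did not overlap, but the difference of −0.43 ± 0.20 did not pass (adjusted p = 0.0974). The Young Early call of MYPN was lost with scaling by library size alone, where the value was −0.107 (adjusted p = 0.734).

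**Figure D2:**
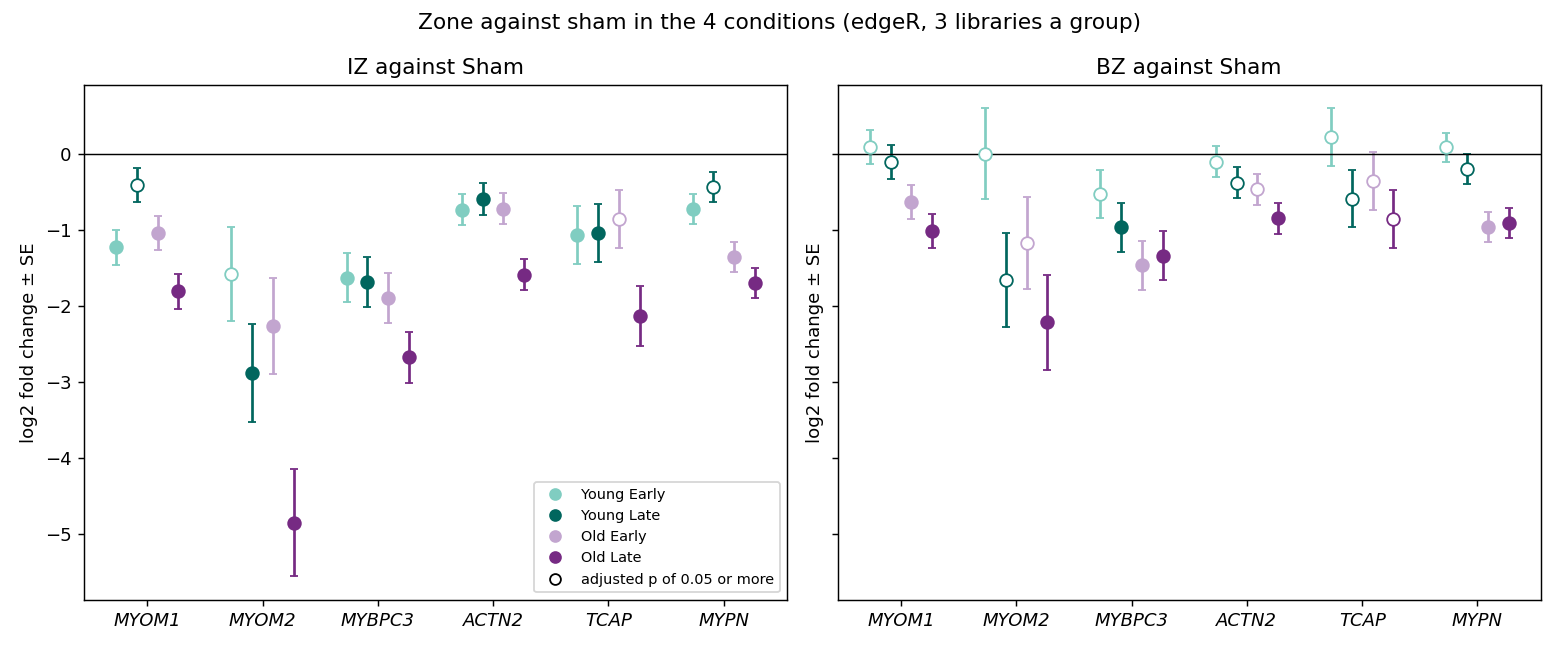
Log2 fold change ± SE of IZ (left) and BZ (right) against Sham for the 6 genes in the 4 conditions, from edgeR with 3 libraries a group. Filled points passed an adjusted p of 0.05. All IZ values lie below 0 and MYOM2 in Old Late is the lowest, at −4.85.

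The border zone was compared with the same shams, so the IZ and BZ comparisons of a condition share control libraries. Of the 24 differences in the BZ, 9 were called lower, none was called higher and 16 had all BZ libraries below all shams. By condition 0, 5, 5 and 6 of the 6 genes lay below without overlap, where the share over all genes was 6.33%, 17.1%, 20.0% and 32.7% in Young Early, Young Late, Old Early and Old Late. In Young Early no gene was called, where 1.11% of all genes were called and 0.330% called lower. By edgeR at an unadjusted p under 0.05, by DESeq2 and by limma-voom the count there was also 0. Young Early BZ replicate 2 held 1475 CPM of MYOM1 and 6401 CPM of TCAP, where the other 2 libraries held 818 and 822 CPM and 1715 and 1634 CPM. In contrast, that library was the lowest of its group for MYBPC3 (1452, beside 4942 and 3044 CPM) and ACTN2 (1897, beside 2428 and 2481.5 CPM). Without it no member was called either.

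MYBPC3 was the only member called in Young Late BZ, where 14.2% of genes were called and 6% called lower. It was 3392, 2447.5 and 3460.4 CPM, below the 5651 to 6461 CPM of the shams, a fall of 0.96 ± 0.32 (adjusted p = 0.0425). This call was lost without any single library of the 6 (log2 values of −1.05 to −0.82, adjusted p up to 0.188), and also with library size alone, no filter, RNA integrity as a covariate and limma-voom (adjusted p = 0.131, 0.0635, 0.0627 and 0.0547). MYOM2 had a larger difference there, −1.66 ± 0.61, but did not pass (adjusted p = 0.0682). It was 823, 318 and 329.5 CPM in the BZ, below the shams, and passed without Young Late BZ replicate 1 (−2.25) and in the fit without Young Early BZ replicate 2 (−1.65, adjusted p = 0.0498).

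In Old Early BZ MYBPC3 fell by 1.46 ± 0.32 (adjusted p = 0.00193), MYPN by 0.97 ± 0.20 (adjusted p = 0.000978) and MYOM1 by 0.64 ± 0.22 (adjusted p = 0.0401). In this comparison 22.5% of all genes were called and 8.46% called lower. MYPN was 59.5, 60.4 and 44.1 CPM in the BZ, all below the 100.6 CPM of the lowest sham. The MYOM1 call was lost without any 1 of 5 libraries, all but Old Early BZ replicate 1 (adjusted p up to 0.168), with no filter (0.0626 in edgeR) and with the compared groups alone (0.0613). With library size alone MYOM1 was at −0.293 and MYPN at −0.624, and neither was called (adjusted p = 0.291 and 0.0513). MYOM2 spread from 240.2 to 954 CPM there and did not pass (−1.17 ± 0.61, adjusted p = 0.168), nor did ACTN2 (−0.47 ± 0.20, adjusted p = 0.0991) or TCAP (−0.36 ± 0.38, adjusted p = 0.518).

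In Old Late BZ 5 of the 6 genes fell, where 39.7% of all genes were called and 19.7% called lower. MYOM2 fell by 2.22 ± 0.63 (adjusted p = 0.00638), with 351, 712 and 798 CPM in the BZ and no sham under 2556 CPM. MYBPC3 fell by 1.34 ± 0.32, MYOM1 by 1.02 ± 0.23, MYPN by 0.91 ± 0.20 and ACTN2 by 0.85 ± 0.21 (adjusted p = 0.00186, 0.000888, 0.000662 and 0.0019). TCAP was at −0.86 ± 0.38 (adjusted p = 0.0717), with 843, 1370 and 1235 CPM in the BZ and no overlap with the shams, and passed in the fit without Young Early BZ replicate 2 (adjusted p = 0.0135). The ACTN2 call was lost with library size alone (−0.582, adjusted p = 0.0687).

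Infarct and border zones of the same pig were compared within the 12 infarcted pigs, with the pig as a block. Over the 6 genes and 12 pigs, the IZ held less than the BZ in 68 of 72 pairs. This count is a description only, as the 6 genes varied together over the libraries and the 72 pairs are not independent. The same share over all genes was not computed. In Young Early MYOM1 fell by 1.26 ± 0.23 (adjusted p = 0.00903) and MYPN by 0.81 ± 0.19 (adjusted p = 0.0198) from BZ to IZ, where 10.7% of all genes were called and 6.68% called lower. TCAP, MYBPC3 and ACTN2 were at −1.02 ± 0.31, −0.98 ± 0.30 and −0.63 ± 0.20 and did not pass (adjusted p = 0.0543, 0.056 and 0.0611). Without the block 4 genes passed. TCAP passed without Young Early IZ or BZ replicate 3. The MYPN call was lost without either library of pig 1 or pig 2, which hold replicate 1 and replicate 2 of both zones, and that of MYOM1 without Young Early IZ replicate 2 (adjusted p = 0.0501).

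No gene was called between zones in Young Late or Old Early by edgeR, among the members or in the whole table (0.00% in each). At an unadjusted p under 0.05 edgeR gave 1 member in each, and over all genes 1434 and 928. DESeq2 called none of the members and, over all genes, 79 in Young Late and 5 in Old Early. MYOM2 was −1.16 ± 0.61 in Young Late (adjusted p = 0.559) and −1.07 ± 0.58 in Old Early (adjusted p = 0.784). In each of these conditions 1 pig had a much larger step in MYOM2 than the other 2, with log2 IZ minus BZ of −3.09, −0.21 and −0.35 in Young Late and of −2.20, −0.40 and −0.61 in Old Early. In Young Late the pig at −3.09 had its IZ prepared in batch 1 and its BZ in batch 2. The pig at −0.35 had IZ in batch 2 and BZ in batch 1, and the pig at −0.21 had both in batch 2. The part of batch in these single steps was not tested.

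In Old Late the step from BZ to IZ was −4.67, −1.93 and −2.50 for MYOM2 in the 3 pigs, so that all 3 moved the same way. MYOM2 fell by 3.02 ± 0.63 (adjusted p = 0.0375), MYBPC3 by 1.33 ± 0.30, TCAP by 1.30 ± 0.31 and MYPN by 0.82 ± 0.19 (adjusted p = 0.0468, 0.0494 and 0.0468). MYOM1 (−0.80 ± 0.23) and ACTN2 (−0.78 ± 0.20) did not pass (adjusted p = 0.0762 and 0.0601). In this comparison 2.05% of all genes were called and 1.61% called lower. These 4 calls were lost without any 1 of the 6 libraries, where MYOM2 lay between −3.61 and −2.25, and without the block, where 0 genes passed. With the pig as a block, a pig left with 1 library gives no IZ minus BZ step. Leaving out either library therefore in effect drops that pig, here and in Young Early. The MYPN call was also lost with a batch term, with DESeq2 size factors and with no filter (edgeR adjusted p = 0.0526, 0.0538 and 0.0562). With library size alone the MYBPC3, TCAP and MYPN calls were lost in Old Late (adjusted p = 0.0622, 0.0622 and 0.125) and the MYPN call in Young Early (−0.395, adjusted p = 0.125). The 4 Old Late calls were also lost when Old Late BZ replicate 3 was paired by its individual label, which names another pig than its title. In the fit without Young Early BZ replicate 2 all 6 genes passed.

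**Figure D3:**
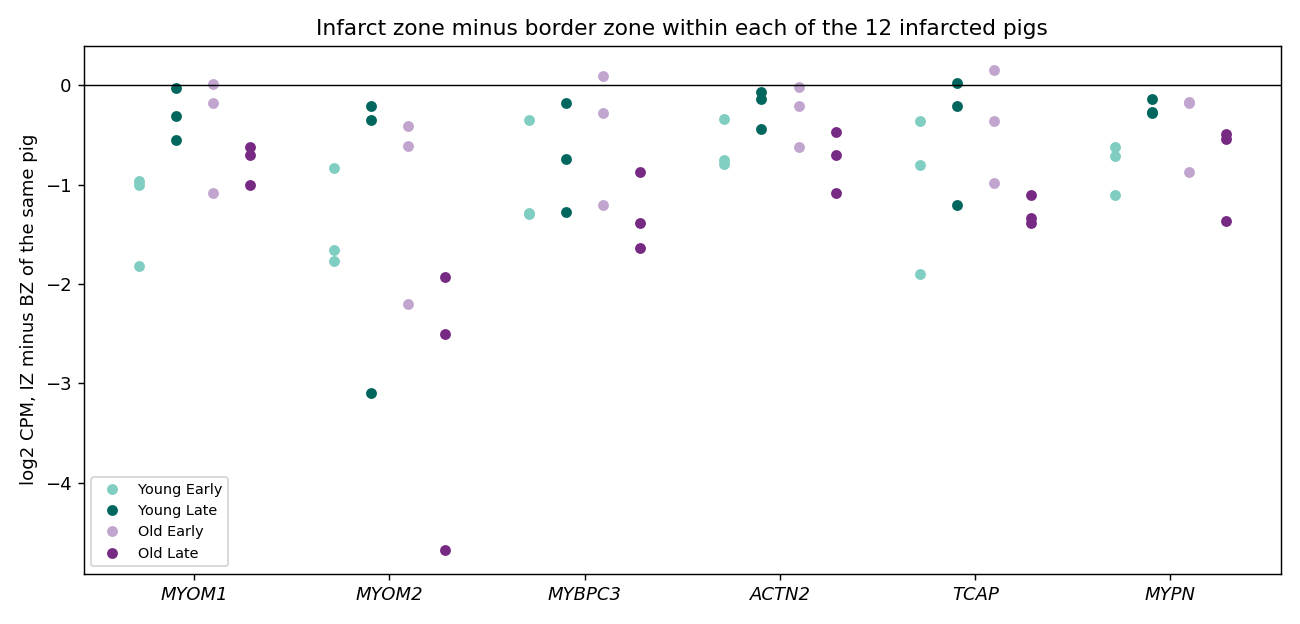
Log2 CPM of IZ minus that of BZ of the same pig for the 6 genes, with 1 point for each of the 12 infarcted pigs, coloured by condition. MYOM2 in Old Late lies lowest, from −4.67 to −1.93, and 4 of the 72 points lie above 0.

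The age difference in the response, IZ minus Sham in Old pigs less the same in Young pigs, was tested as an interaction. At 1 week 3 of the 6 genes had a more negative response in Old pigs, against 2.35% of all genes called lower and 3.67% called in either direction. These were MYOM1 at −1.41 ± 0.32 (adjusted p = 0.0175), MYPN at −1.27 ± 0.28 (adjusted p = 0.0167) and ACTN2 at −0.99 ± 0.29 (adjusted p = 0.049). For MYOM1 the IZ mean was 301 ± 51.7 CPM in Old Late and its sham mean 1053 ± 43.9, where the Young Late shams held 794 ± 103.8. Part of the MYPN difference lay in the shams, which held 120.7 ± 9.22 CPM in Old Late and 82.5 ± 7.72 in Young Late, and part in the IZ, at 37.3 ± 12.2 and 61.3 ± 2.25 CPM. MYOM2 had the largest value, −1.98 ± 0.86, but its error was also the largest and it did not pass (adjusted p = 0.18). TCAP (−1.09 ± 0.54) and MYBPC3 (−0.99 ± 0.45) did not pass either (adjusted p = 0.245 and 0.204). A more negative response in Old pigs was not particular to these genes. Among the 17 other cardiomyocyte genes, the 2 called with the largest difference were CKMT2 (−2.23 ± 0.40) and SRL (−1.13 ± 0.30), with adjusted p = 0.00534 and 0.0344.

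These 3 calls depended on single libraries and on scaling, and ACTN2 also on other settings. ACTN2 was not called with a batch term (−0.994, adjusted p = 0.0529), RNA integrity as a covariate (−0.915, 0.0725), no filter (−0.995, 0.0764) or without mitochondrial genes (−0.867, 0.0849). Nor was it called with DESeq2 size factors in edgeR (−0.920, adjusted p = 0.0611), the compared groups alone (−0.859, 0.0654) or library size alone (−0.582, 0.374). With library size alone MYOM1 (−1.02, adjusted p = 0.0562) and MYPN (−0.866, 0.158) were not called either. ACTN2 lost its call without any 1 of 11 of the 12 libraries, all but Old Late IZ replicate 2 (adjusted p up to 0.225). MYOM1 lost it without Young Late IZ replicate 2 or replicate 3, without Old Late IZ replicate 3 and also without replicate 2 of Young Late Sham, with log2 values between −1.52 and −1.16 over all 12 fits. MYPN lost it without Young Late IZ replicate 3, Old Late IZ replicate 1 or 3, and without that same sham, with values between −1.44 and −0.97 and an adjusted p up to 0.0823 in edgeR for either gene. MYOM2 passed without Old Late IZ replicate 2, at −2.99.

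No member was called for the age difference in the Early IZ (0.915% of all genes called), the Early BZ (0.220%) or the Late BZ (1.09%). At an unadjusted p under 0.05 edgeR gave 1, 3 and 2 members there, and DESeq2 called 0, 1 and 0. The nearest was MYPN in the Early BZ, at −1.05 ± 0.28 (adjusted p = 0.0678), which passed without Young Early BZ replicate 2 (−0.972, adjusted p = 0.0276), as did MYBPC3 (−1.28, adjusted p = 0.0326). Between Early and Late responses in the IZ no member was called in Young pigs, where 12.3% of all genes were called, or in Old pigs, where 4.53% were. By edgeR at an unadjusted p under 0.05 the counts were 1 and 4, and DESeq2 called 1 and 2. MYOM1 in Young pigs was at 0.82 ± 0.32 (adjusted p = 0.0798), and positive, as the Late response was smaller. In Old pigs MYOM2 was at −2.59 ± 0.86 (adjusted p = 0.0842), ACTN2 at −0.86 ± 0.29 (adjusted p = 0.086) and TCAP at −1.27 ± 0.54 (adjusted p = 0.198). In the fit without Young Early BZ replicate 2, MYOM1 passed in Young pigs and ACTN2 and TCAP in Old pigs (adjusted p = 0.0263, 0.0424 and 0.0465). MYOM2 and ACTN2 passed in Old pigs without Old Late IZ replicate 2 (−3.67 and −1.03).

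The balance of the 2 myomesins differed among groups. The ratio of MYOM2 to MYOM1 per length was 0.575 ± 0.248 in Young Early Sham, 1.21 ± 0.397 in Young Late Sham, 1.09 ± 0.175 in Old Early Sham and 1.66 ± 0.251 in Old Late Sham. MYOM1 was thus the more abundant of the 2 in all 3 Young Early shams and MYOM2 in all 3 Old Late shams. Those sham groups also differed in batch (1 and 3) and in RNA integrity number (6.4 to 6.9 and 7.8 to 8.4). The parts of age, batch and RNA integrity in the ratio were not tested. In the IZ the ratio was 0.45 ± 0.168, 0.208 ± 0.0874, 0.44 ± 0.175 and 0.193 ± 0.161 in the same order. The highest ratio in any IZ library was 0.618, and in Young Late, Old Early and Old Late all IZ libraries lay below all shams. In Young Early the IZ (0.263 to 0.589) overlapped the Sham (0.288 to 0.719). The BZ ratio was 0.531 ± 0.274, 0.395 ± 0.199, 0.709 ± 0.303 and 0.709 ± 0.151. These ratios are a description, with no test of their own.

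**Figure D4:**
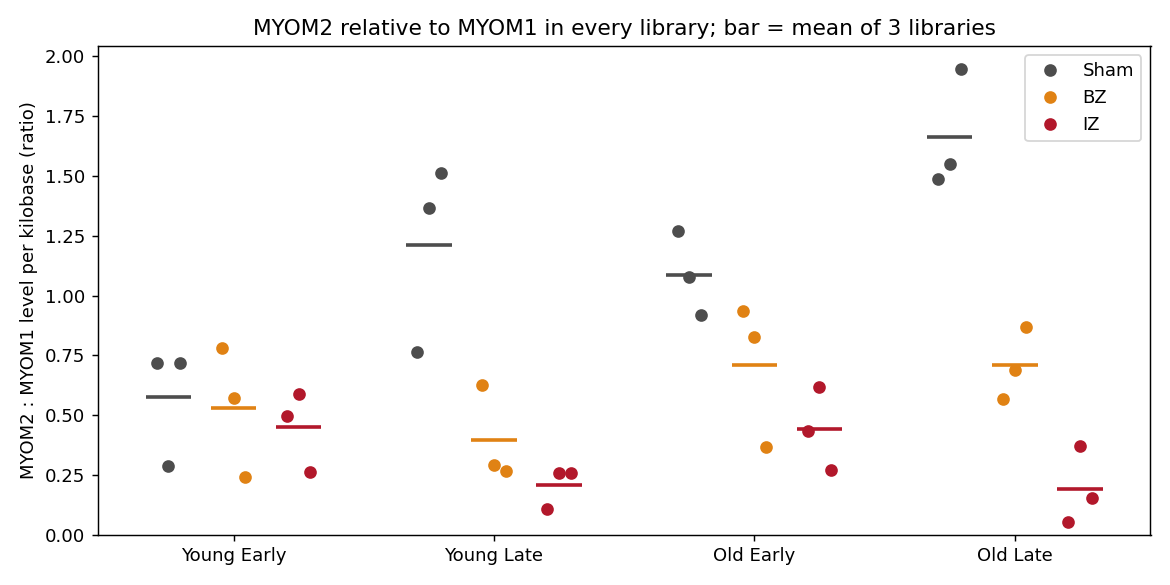
Ratio of the MYOM2 to the MYOM1 level per kilobase of exon in each library, with Sham in grey, BZ in orange and IZ in red, and bars for means of 3. Shams run from a mean of 0.575 in Young Early to 1.66 in Old Late, and IZ means lie between 0.193 and 0.45.

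Other cardiomyocyte transcripts also fell in the IZ, with 10, 5, 15 and 16 of the 17 listed genes called lower and 1, 0, 0 and 1 called higher in Young Early, Young Late, Old Early and Old Late. Each gene was therefore also set against the mean log2 CPM of these 17 genes. They were chosen as cardiomyocyte genes outside the sarcomere. Whether the product of each, CKM among them, is absent from the sarcomere was not checked. The zone minus sham difference of that contrast was averaged over the 4 conditions and tested with an exact permutation test of the libraries within conditions (two-sided, 160000 arrangements), with 12 tests adjusted together. In the IZ MYOM2 fell relative to these genes by 1.80 (exact permutation adjusted p = 0.0006) and MYBPC3 by 0.72 (exact permutation adjusted p = 0.00015). ACTN2 rose relative to them by 0.36 (exact permutation adjusted p = 0.00251) and MYPN by 0.21 (exact permutation adjusted p = 0.00705). MYOM1, at 0.15, and TCAP, at −0.01, did not pass (exact permutation adjusted p = 0.181 and 0.929). For both the sign differed between conditions, with MYOM1 at −0.37, 0.47, 0.44 and 0.05 and TCAP at −0.24, −0.19, 0.66 and −0.28 in Young Early, Young Late, Old Early and Old Late. Without Young Early MYOM1 passed, at 0.317 (exact permutation adjusted p = 0.004). In the same order ACTN2 was at 0.14, 0.27, 0.76 and 0.26 and MYPN at 0.14, 0.44, 0.13 and 0.13. MYOM2 was at −0.68, −2.12, −0.93 and −3.45 and MYBPC3 at −0.82, −0.85, −0.42 and −0.79. Both MYOM2 and MYBPC3 were below 0 in all 4 conditions. The differences between conditions were not tested.

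In the BZ MYBPC3 fell relative to the cardiomyocyte genes by 0.45 (exact permutation adjusted p = 0.0006) and ACTN2 rose by 0.23 (exact permutation adjusted p = 0.0251). MYOM2 was at −0.71 and did not pass (exact permutation adjusted p = 0.0556), nor did MYPN at 0.18 (exact permutation adjusted p = 0.0567). MYOM2 passed without any of 5 libraries taken singly, among them Young Early BZ replicate 2 (−0.875, exact permutation adjusted p = 0.0139), and without Young Early as a whole (−0.931, 0.00562). The other 4 were Young Early Sham replicate 2, Young Late BZ replicate 1, Old Early Sham replicate 3 and Old Early BZ replicate 1. Without Young Early MYOM1 (0.277) and MYPN (0.176) passed too. MYPN also passed without any of 5 libraries, Young Early BZ replicate 1 or 3, Old Late Sham replicate 3, Old Early Sham replicate 3 or Old Early BZ replicate 1, and MYOM1 without Young Early BZ replicate 1. The smallest p-value this test can give is 1.25e-05. Against a reference of TNNT2, TNNC1 and ACTC1 instead, ACTN2 and MYPN no longer passed in the IZ (0.18 and 0.03), whereas MYOM2 and MYBPC3 still did, and the ACTN2 value in the BZ turned negative (−0.131). MYOM2 in the BZ passed against that reference, at −1.07 (exact permutation adjusted p = 0.00731). MYPN in the IZ no longer passed without Young Late (0.134). Without Old Early or Old Late the ACTN2 call in the BZ was lost (0.116 and 0.221), as it was without Young Late Sham replicate 1, Young Early BZ replicate 2 or Young Early Sham replicate 3 (adjusted p up to 0.0546, exact permutation test).

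**Figure D5:**
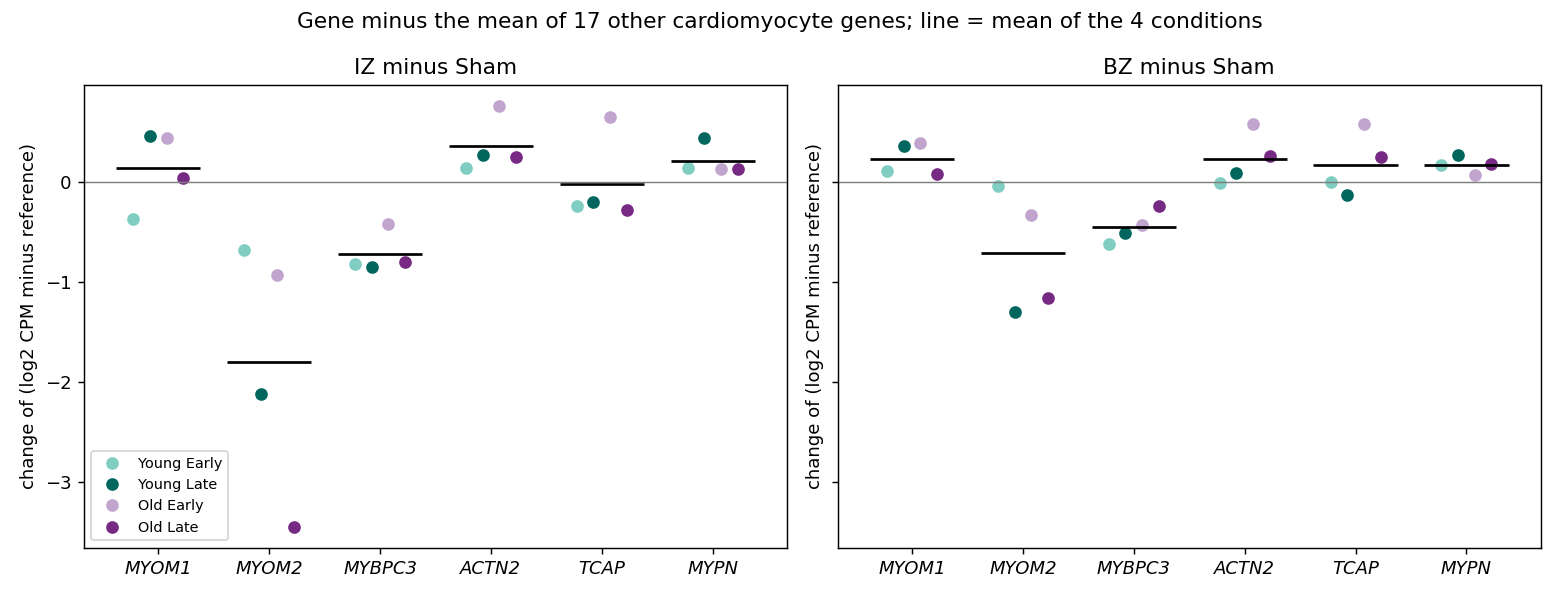
Zone minus Sham difference of each gene's log2 CPM after subtracting the mean log2 CPM of 17 other cardiomyocyte genes, for IZ (left) and BZ (right). Points are the 4 conditions and lines their mean, and MYOM2 (−1.80) and MYBPC3 (−0.72) lie below 0 in the IZ while ACTN2 (0.36) and MYPN (0.21) lie above it.

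Other sarcomere genes were taken from lists by role. Beside the shares called lower given above, 15.2%, 17.2%, 19.5% and 25.1% of all genes were called higher in the IZ of Young Early, Young Late, Old Early and Old Late. Among 13 other M-band and titin-linked genes, 6, 2, 7 and 8 fell and 2, 3, 2 and 1 rose in the IZ of Young Early, Young Late, Old Early and Old Late. The list's medians were −1.02, −0.34, −0.87 and −1.14. Of these genes CMYA5 (myospryn) fell by 2.94 ± 0.42 in Old Late (adjusted p = 1.51e-06), while the stretch-responsive ankyrin repeat gene ANKRD2 rose by 2.36 ± 0.49 in Young Early (adjusted p = 0.000967). CAPN3, a titin-bound protease, rose by 3.04 ± 0.51 in Old Late (adjusted p = 1.75e-05) and was 9.14 CPM at most in any library.

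Among 22 other Z-disc genes, 1, 4, 3 and 8 fell and 4, 6, 7 and 3 rose in the IZ of the 4 conditions in the same order, with medians of 0.29, 0.24, −0.09 and −0.47. XIRP2, which binds actin at cell junctions and Z-discs, rose by 4.42 ± 0.91 in Young Late (adjusted p = 0.000564). ACTN1, the non-muscle relative of ACTN2 and widely expressed in other cells, rose by 2.43 ± 0.52 in Old Late (adjusted p = 0.000304), where ACTN2 fell. PDLIM3 rose by 2.69 ± 0.53 in Young Early (adjusted p = 0.000567).

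Among 9 other thick filament genes tested, 5, 4, 5 and 6 fell and 0, 1, 1 and 1 rose, with medians of −0.94, −0.72, −1.09 and −1.23. MYLK3, the cardiac myosin light chain kinase, fell by 2.44 ± 0.26 in Old Late (adjusted p = 2.32e-08). MYL4, a light chain of atrial and fetal heart muscle, rose by 3.78 ± 0.77 in Young Late IZ (adjusted p = 0.000534) and by 3.85 ± 0.78 in Old Late IZ (adjusted p = 0.000162). Of 9 thin filament genes, 7, 1, 3 and 6 fell and 0, 2, 0 and 1 rose, and ACTA1, skeletal actin, rose by 1.77 ± 0.35 in Young Late (adjusted p = 0.00035). Of 15 splicing and transcription factors of heart muscle, 14 fell and none rose in Old Late IZ, beside 2, 6 and 7 that fell in Young Early, Young Late and Old Early. PPARGC1A, a regulator of mitochondrial genes, fell by 2.81 ± 0.30 in Old Late IZ (adjusted p = 2.62e-08). RBM20, a splicing factor known for titin that is also among the 17 reference genes, rose by 1.48 ± 0.56 in Young Early IZ and fell by 2.12 ± 0.57 in Young Late IZ (adjusted p = 0.0487 and 0.0058).

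At the positions where the RefSeq table of the pig genome places TTN and LDB3, the count table held 6 gene models without a symbol. They are described by position only. Between FKBP7 and CCDC141 on chromosome 15, an interval that in RefSeq also holds PLEKHA3, lay 4 models, and between OPN4 and BMPR1A on chromosome 14, where RefSeq places LDB3, lay 2. In the IZ 2, 2, 4 and 6 of the 6 models fell in Young Early, Young Late, Old Early and Old Late, and none rose. The most abundant model of the chromosome 15 interval, ENSSSCG00000036052 (84227979 to 84230496, minus strand, 1326 exonic bases), held 1834, 1956 and 2191 CPM in Old Late Sham and 323, 510.5 and 429 CPM in Old Late IZ, a fall of 2.24 ± 0.71 (adjusted p = 0.00983). In Young Early BZ it was 10.4 CPM in replicate 2 and 1376 and 1136 CPM in the other 2. On chromosome 14 the model ENSSSCG00000010359 (87659261 to 87690261, plus strand, 2323 exonic bases) was at 2049.5, 2178 and 2030.2 CPM in Young Early Sham and at 450.0, 811.5 and 314 CPM in Young Early IZ, a fall of 1.99 ± 0.41 (adjusted p = 0.000973). It was not called in Young Late IZ (−0.23 ± 0.40, adjusted p = 0.695).

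Across all 36 libraries the 6 genes varied together, with Pearson correlations of log2 CPM from 0.591 (MYBPC3 with TCAP) to 0.898 (MYBPC3 with ACTN2). These values describe libraries that share the injury, age and depth differences above. Of 9836 other named genes, those most like MYOM1 were STARD7 (r = 0.958), ACADSB and ATP5F1C. RBFOX1 (r = 0.947), KBTBD12 and SLC41A1 were most like MYOM2, and ADHFE1 (r = 0.964), DOCK3 and PTPRU most like MYBPC3. ACTN2 had IMMT (r = 0.950), LRRC39 and CAMK2A, TCAP had POPDC3 (r = 0.923), EEF1A2 and MAF1, and MYPN had TRAK1 (r = 0.941), NCEH1 and OXCT1. From the lowest to the highest library MYOM2 spanned 125-fold, from 27.8 CPM in Old Late IZ replicate 1 to 3481 CPM in Old Late Sham replicate 3. The other 5 genes spanned 3.71-fold (ACTN2) to 19.1-fold (TCAP, with its highest value in Young Early BZ replicate 2).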

How the data were processed

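The labels' protocols give polyA RNA, stranded TruSeq libraries and 76 bp paired reads on a NextSeq. Tools named per the submitters' processing notes are Trimmomatic 0.36, featureCounts (Subread 1.5.1), STAR and bcl2fastq 2.19.0.316. The genome build, annotation and strand setting are not given in the sources used here. The authors deposited whole-number counts of reads per gene model, not normalized, per the file headers, together with each model's position and exonic length.

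The count table holds 25880 identifiers, and a table of pig gene names gave 14857 of them a symbol. Libraries were scaled by TMM, and filterByExpr (minimum count 10, total 15) left 14537 genes. edgeR 4.0.16 (glmQLFit, robust) in R 4.3.3 was fitted with 1 mean per group over 36 libraries and 24 residual degrees of freedom. IZ and BZ of a pig entered it as independent. IZ against BZ used the 24 libraries of infarcted pigs with the pig as a block (14386 genes, 8 residual degrees of freedom). The pairing comes from the pig in the titles. Deviations of same-pig libraries from their group means correlated at 0.45 to 0.67 in Young Early, Old Early and Old Late and at −0.20 to −0.04 in Young Late. In all, 22 comparisons were made, each adjusted by Benjamini-Hochberg over all genes.

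The code was tested on simulated data. Pigs are separate animals per the labels. In the fit of 36 libraries p-values measure the spread between animals of a group, but the 2 zones of an infarcted pig count as independent. Those of IZ against BZ measure how the IZ minus BZ difference varied between pigs of a condition. Genes named from each list are the 2 called with the largest change per comparison, of which examples are given. Genes most alike are the 3 with the highest Pearson r among named genes with a mean log2 CPM of at least 1 (prior count 2). The members and lists were chosen with earlier results of these data known. Alternatives were DESeq2 (1.42.0) or its size factors, limma-voom (3.58.1) with the animal as a random block, no filter, library size alone, batch or RNA integrity terms, the compared groups alone and each library left out.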

Additional observations from a re-analysis of the deposited data

Results flagged for a closer look

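The Late infarct zone response was called as different between pigs operated on at day 14 and at day 2 in 3 genes, by the test of the interaction itself. These calls depended on single libraries and on scaling. With 1 library left out, 0 to 4 genes were called. With library size alone MYOM1, ACTN2 and MYPN were not called (edgeR adjusted p = 0.0562, 0.374 and 0.158). The Old minus Young difference was −1.41 for MYOM1, −0.99 for ACTN2 and −1.27 for MYPN on the log2 scale. The fall from Sham to IZ was larger in Old pigs in each. All Old Late libraries belong to a preparation batch of their own, and the Young Late libraries to the other 2 batches. A batch term could set only batch 2 against batch 1. Young Late IZ and Young Late Sham were split alike over these batches, so the term could not adjust this difference and does not test batch. With the term the values were −1.41 for MYOM1, −1.27 for MYPN and −0.99 for ACTN2 (edgeR adjusted p = 0.0178, 0.0162 and 0.0529). Batch and condition cannot be told apart for the levels in Old Late.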

How the results depend on the processing

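Of the 6 genes, the infarct zone values kept their sign against sham under every alternative, and the number of the 6 called in either direction changed by over 1.5 times only as follows. Scaling by library size alone, which moved the median log2 fold change of all genes to 0.69, 0.22, 0.40 and 0.53 for IZ and to 0.30, 0.16, 0.37 and 0.24 for BZ against Sham, gave 2 genes in Young Early IZ, 0 in Young Late BZ, 1 in Old Early BZ, 1 between zones in Young Early, 1 between zones in Old Late, 0 for the Late IZ age difference and 2 in Late Sham. DESeq2 gave 2 in Young Late BZ, 5 between zones in Young Early, 1 for the Early BZ age difference, 1 and 2 for Late minus Early in Young and Old pigs and 1 in Late Sham. DESeq2 size factors in edgeR gave 2 between zones in Old Late. With no count filter there were 0 in Young Late BZ and 2 between zones in Old Late. With RNA integrity as a covariate there were 0 in Young Late BZ, 4 between zones in Young Early and 0 in Early Sham. The batch term gave 0 in Early Sham and could not be fitted for Late Sham and Old Sham. limma-voom gave 0 in Young Late BZ. The compared groups alone gave 2 in Young Late BZ, 1 and 1 for Late minus Early in Young and Old pigs, 2 in Late Sham and 2 in Old Sham. Leaving Young Early BZ replicate 2 out of every fit, chosen after seeing the data, gave 2 in Young Late BZ, 1 and 2 for Late minus Early and 1 in Late Sham. Without the replicate block 4 genes were called between zones in Young Early and 0 in Old Late, and the pairing by individual label gave 0 in Old Late. Leaving out 1 library at a time gave 2 to 4 genes in Young Late IZ, 0 to 1 in Young Late BZ, 0 to 3 and 0 to 0 between zones in Young Early and Old Late, 0 to 4 for the Late IZ and 0 to 2 for the Early BZ age difference, and 0 to 2 for Old Late minus Early.

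Relative to the cardiomyocyte genes, 4 genes passed in the IZ and 2 in the BZ. With the troponin and actin genes as reference 2 passed in the IZ, and MYOM1 was at −0.033 there and at −0.126 in the BZ, with ACTN2 at −0.131, TCAP at −0.185 and MYPN at −0.187. TCAP in the IZ was 0.060, 0.045 and 0.076 without Young Early, Young Late and Old Late, and −0.098 to 0.055 with 1 library left out. In the BZ TCAP was −0.047 to 0.295 with 1 library left out, and 5, 1 and 1 genes passed without Young Early, Old Early and Old Late, and 1 to 4 with 1 library left out. The cause of these changes was not tested. Another 66 member values stand in the text only as counts. Of these, 23 changed sign under at least 1 alternative, and 0 of the sign changes were called.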
